A study of Mus musculus with 20 samples.

Results

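The genes described here encode the contractile machinery of smooth muscle and of peritubular myoid cells, the flat contractile cells wrapped around each seminiferous tubule. They are Acta2, Myh11, Tagln, Cnn1, Myl9, Des, Actg2, Lmod1, Smtn and Mylk. The members were chosen by symbol from the gene count table, and all 10 were found among its 22066 symbols and were tested. RNA was from testes, labelled as mixed testicular cells, of male NSG mice, an immunodeficient strain that lacks mature lymphocytes and accepts human cells. The 20 libraries formed 5 groups of 4. NC held normal controls. ALL held mice engrafted with B-ALL, a human leukaemia of B-cell precursors taken from a patient, and given no drug. VCR held mice given vincristine, whose labels name no injected leukaemia cells. Low-VCR and High-VCR held mice with B-ALL and vincristine whose leukaemia infiltration of peripheral blood was low or high. Per the labels' protocols the mice were 6 weeks old and male, and the model was made with 400000 B-ALL cells injected into the tail vein. Vincristine sulfate, which binds tubulin and blocks cell division, was injected intraperitoneally from day 69 on, 1 dose of 0.5 mg/kg a week over 3 weeks, with saline for controls. All 5 groups share the NSG genotype.

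In smooth muscle, calcium entering the cell activates the kinase encoded by Mylk, which phosphorylates the regulatory light chain encoded by Myl9. Myosin built on the heavy chain Myh11 then pulls on actin filaments made of Acta2 and Actg2 products, while proteins of Tagln, Cnn1, Smtn and Lmod1 bind, stabilise or nucleate those filaments and desmin (Des) ties them together. In the testis, peritubular myoid contraction moves sperm and fluid along the tubule, and vascular smooth muscle and pericytes use much of the same machinery. Actg2 is a special case, because a smooth muscle gamma-actin transcript has been described in mouse germ cells after meiosis.

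Many of these genes are controlled by serum response factor (SRF), which binds a short element called the CArG box in their promoters. The promoter stretches of Acta2 and Myl9 are shown because these genes had the highest levels per length among the members in the treated groups, and because they were the members with a match. Both stretches come from RefSeq on GRCm38.p6, read 5′ to 3′ on the strand of the gene, with matches in capitals.
Acta2, chr19:34255388-34255503, minus strand: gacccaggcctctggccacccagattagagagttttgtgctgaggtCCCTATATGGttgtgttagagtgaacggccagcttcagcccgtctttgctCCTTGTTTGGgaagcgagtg
Myl9, chr2:156775284-156775389, plus strand: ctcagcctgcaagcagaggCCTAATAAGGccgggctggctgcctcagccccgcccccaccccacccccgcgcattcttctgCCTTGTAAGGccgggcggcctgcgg
The Myl9 stretch holds a full CArG box at -161 to -152, counted from the annotated start, and a match with 1 C or G inside the A and T core at -99 to -90. The Acta2 stretch holds matches of the looser kind at -84 to -75 and at -34 to -25. The search covered the 250 bases before the start, and the pattern reads the same on both strands. Of 32851 RefSeq windows of this length, 1.47% hold a full CArG box and 8.59% hold a full or looser match. A window was at hand for 7 of the 10 members, and Cnn1, Des, Lmod1, Smtn and Mylk had neither kind of match in it. A match in letters is a description and shows no binding.

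Total counts per library lay between 9425158 and 16357287. On the first principal component of all tested genes (69.7% of the variance) untreated libraries lay at -125.4 to -108.7 and treated ones at 0.4 to 238.3. Library 1 of VCR stood farthest out, at 238.3, so results that involve VCR were also computed without it. Spermatid genes, 15 of 15 detected, summed to 23187 to 27813 CPM in NC and 27500 to 30703 in ALL. CPM here means counts scaled to a common library total, after edgeR's adjustment of each total (TMM, described below). In the treated groups the sum was 396 to 11425 CPM (VCR), 11701 to 19621 (Low-VCR) and 7754 to 14869 (High-VCR). Sertoli cell genes, 21 of 21 detected, moved the other way, from 2306 to 2664 CPM in NC and 2102 to 2310 in ALL to 9337 to 14322 (VCR), 7326 to 9515 (Low-VCR) and 7437 to 12544 (High-VCR). The share of mitochondrial counts was 1.78 to 2.6% in untreated and 4.69 to 11.9% in treated libraries. In a bulk sample, more or fewer cells of a type and more or less RNA per cell cannot be told apart. Because the totals were adjusted, CPM is not an exact share of a library's RNA. The values below are levels relative to the rest of that library.

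Most smooth muscle genes stood at higher TMM-scaled levels in testis RNA after vincristine, though not relative to Sertoli cell genes, and Actg2 stood lower. In VCR against NC, 8 of the 10 rose, Actg2 fell and Mylk did not pass, at an adjusted p under 0.05 in edgeR's quasi-likelihood test. Across all genes tested in this comparison, 77.7% were called, 42.1% higher and 35.6% lower, so most genes changed and a call by itself sets no member apart. The median log2 fold change of the 10 members was 1.45 beside 0.10 over all genes tested. Markers of other somatic cells moved with them and had higher medians, with 21 of 21 Sertoli genes (1.93), 10 of 10 Leydig cell genes (2.77), 14 of 16 endothelial genes (2.00) and 12 of 12 macrophage and monocyte genes (3.23) called higher. Without overlap between the groups, 9 members were higher and 1 lower in VCR, where 39.7% of all genes were all higher and 34.2% all lower. The rise depended on the scaling. With library size alone 9 members were higher and 1 lower, where 77.3% of all genes were called, 65% of those higher. When libraries were scaled on the 21 Sertoli cell genes instead of by edgeR's trimmed mean of M values (TMM), no member was higher, 4 were lower and 6 did not pass, where 8.21% of all genes were called higher and 74.2% lower and the median over all genes was -1.70. Without library 1 of VCR the same members passed in the same directions on TMM scaling, where 40.1% of all genes were called higher and 32.6% lower. Nothing in the labels ties each library to its own mouse, and p-values then speak only for the spread among these samples. The log2 fold changes below carry standard errors (SE) from the fit, with n = 4 libraries per group.

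**Figure D1:**
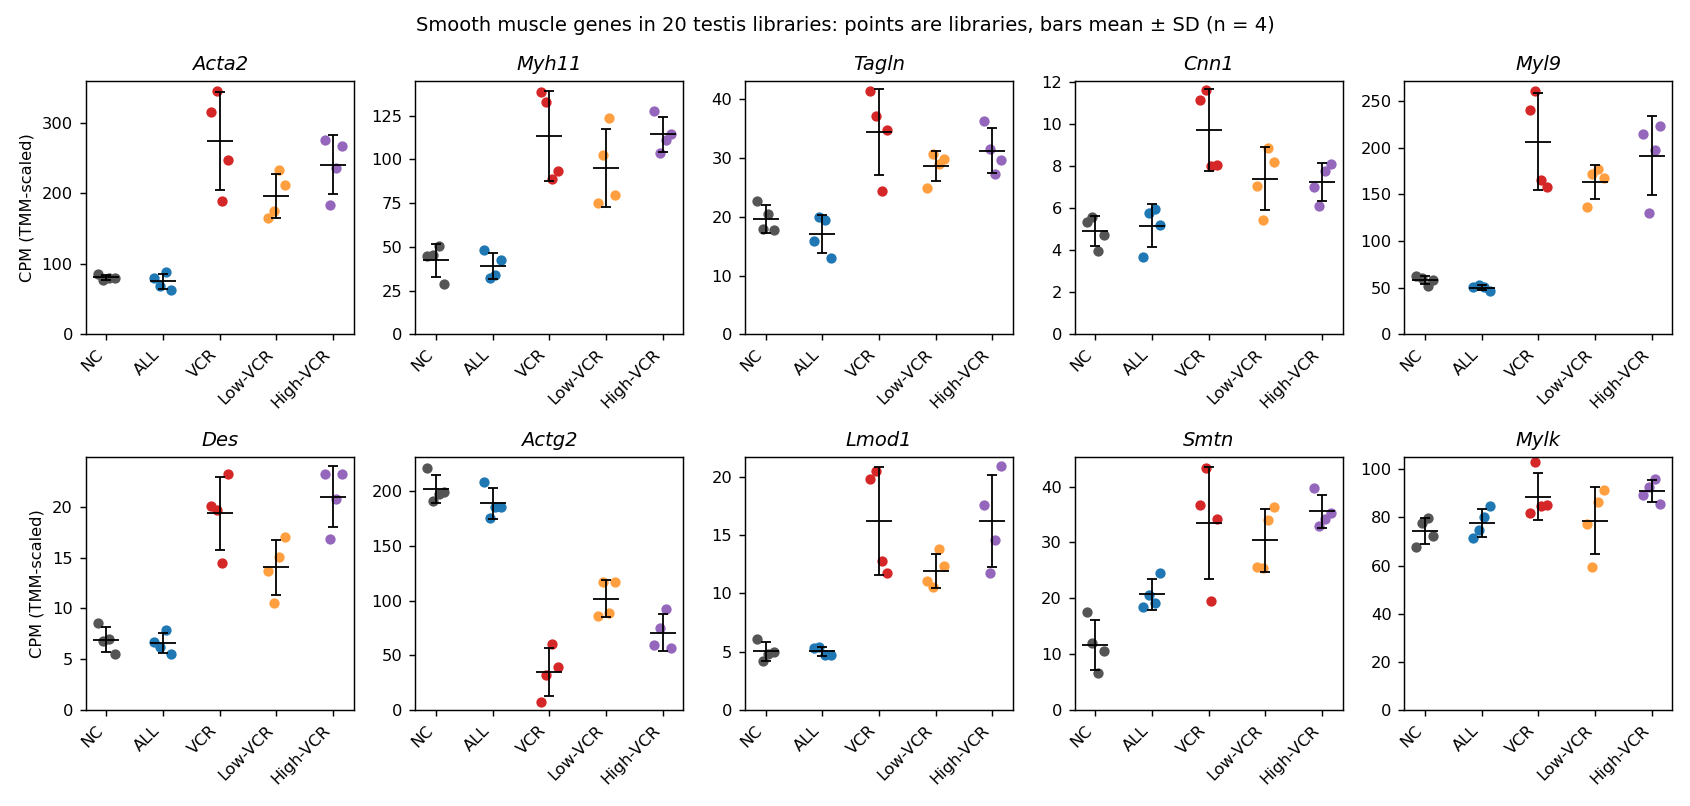
TMM-scaled CPM of the 10 smooth muscle genes (y axis, linear from 0) in the 5 groups (x axis), with 1 point per library and bars for the mean ± SD (n = 4). Acta2 sits at 63.6 to 88.3 CPM in the untreated libraries and at 166 to 345 in the treated ones, Actg2 runs the other way, and Mylk spans 59.6 to 102.99 CPM throughout. Relative to the Sertoli cell genes no member was higher after treatment.

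The actin of contractile filaments in myoid and vascular smooth muscle is encoded by Acta2. Its level was 85.0, 77.6, 80.5 and 80.6 CPM in the NC libraries and 80.1, 68.3, 88.3 and 63.6 in ALL. In VCR it was 316, 345, 189 and 247 CPM, in Low-VCR 166, 175, 233 and 211, and in High-VCR 276, 184, 236 and 267. All 12 treated libraries lay above all 8 untreated ones, and the 3 treated groups overlapped. Acta2 rose by 1.76 ± 0.19 on the log2 scale in VCR against NC, a 3.39-fold difference (edgeR adjusted p = 3.05e-07). Against ALL the change was 1.39 ± 0.19 in Low-VCR (edgeR adjusted p = 1.02e-05) and 1.68 ± 0.19 in High-VCR (6.04e-07), and these comparisons share the ALL libraries.

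Gamma-2 smooth muscle actin, from Actg2, showed the opposite. Actg2 stood at 221, 191, 197 and 200 CPM in NC and at 208, 176, 185 and 185 in ALL. In VCR it stood at 7.39, 31.9, 60.3 and 38.9 CPM, in Low-VCR at 85.6, 117, 88.4 and 117, and in High-VCR at 59.6, 75.2, 92.2 and 56.3. Every treated library lay below every untreated one, library 1 of VCR was the lowest with 97 counts, and VCR did not overlap with Low-VCR. Actg2 fell by 2.54 ± 0.38 on the log2 scale in VCR against NC, 5.83-fold (edgeR adjusted p = 1.42e-05), and by 2.20 without library 1 of VCR (1.57e-07). In High-VCR against ALL it fell by 1.41 ± 0.37 (edgeR adjusted p = 0.00256). In Low-VCR against ALL the change was -0.89 ± 0.36 with an edgeR adjusted p of 0.0499, just under the threshold. This call was lost on leaving out any 1 of the 8 libraries, at adjusted p-values from 0.0646 to 0.106. With library size alone no member was called lower in this comparison.

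The balance of the pair of smooth muscle actins therefore changed within each library. NC libraries held 2.45 to 2.59 Actg2 counts per Acta2 count, and ALL libraries 2.1 to 2.91. The ratio was 0.0234, 0.0924, 0.319 and 0.158 in VCR, 0.379 to 0.665 in Low-VCR and 0.211 to 0.409 in High-VCR. This ratio does not depend on the scaling of the libraries. All treated libraries lay below all untreated ones. The coding sequences of Acta2 and Actg2 are 84.2% identical, with a longest identical run of 29 bases (GENCODE transcripts, GRCm38), so reads within such stretches depend on how the authors' counting assigned them.

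The smooth muscle myosin heavy chain is encoded by Myh11, a gene used to define mature smooth muscle. Myh11 levels were 44.6, 45.3, 50.4 and 28.8 CPM in NC and 48.0, 32.1, 34.2 and 42.7 in ALL. They were 139, 133, 89.0 and 93.6 CPM in VCR, 75.2, 102.6, 124 and 79.6 in Low-VCR and 128, 104, 111 and 115 in High-VCR. Treated and untreated libraries were apart, and High-VCR had the narrowest spread of the treated groups. The log2 fold change was 1.42 ± 0.21 in VCR against NC (edgeR adjusted p = 8.46e-06), 1.28 ± 0.21 in Low-VCR against ALL (5.91e-05) and 1.54 ± 0.21 in High-VCR against ALL (4.27e-06).

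The myosin regulatory light chain gene Myl9 had the largest TMM-scaled rise of the members in each of these comparisons, close to Acta2 in VCR against NC. Its levels were 62.1, 60.7, 52.1 and 57.8 CPM in NC and 50.8, 52.5, 50.6 and 46.7 in ALL. In the treated groups they were 240, 261, 166 and 158 CPM in VCR, 136, 172, 177 and 168 in Low-VCR and 214, 130, 197 and 224 in High-VCR. Its lowest treated library, library 2 of High-VCR at 130 CPM, was above the highest untreated one at 62.1. Myl9 rose 3.54-fold in VCR against NC, a log2 fold change of 1.82 ± 0.18 (edgeR adjusted p = 1.51e-07). It rose by 1.70 ± 0.18 in Low-VCR (1.49e-06) and by 1.93 ± 0.18 in High-VCR (edgeR adjusted p = 1.14e-07), both against ALL.

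The kinase that phosphorylates this light chain did not follow. Mylk, which also encodes longer non-muscle forms of the enzyme, held 67.7, 77.5, 79.7 and 72.2 CPM in NC and 71.3, 74.6, 80.0 and 84.5 in ALL. In VCR it held 81.7, 102.99, 84.5 and 85.2 CPM, in Low-VCR 77.1, 59.6, 86.2 and 91.3, and in High-VCR 89.1, 92.6, 96.0 and 85.5. The VCR libraries were all just above NC and the High-VCR libraries just above ALL, while Low-VCR overlapped with ALL and included the lowest library of all. The log2 difference was 0.25 ± 0.12 in VCR against NC (95% interval -0.01 to 0.52, edgeR adjusted p = 0.0667), 0.02 ± 0.12 in Low-VCR (-0.24 to 0.28, 0.906) and 0.23 ± 0.12 in High-VCR (-0.03 to 0.49, 0.103). Mylk passed in VCR against NC with library size alone (0.64) and with upper-quartile scaling (0.42), and in High-VCR against ALL with library size alone (0.51).

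Transgelin, from Tagln, is an actin-bundling protein and an early marker of smooth muscle. Tagln levels were 22.7, 17.9, 20.5 and 17.7 CPM in NC and 15.9, 20.04, 19.4 and 13.02 in ALL. They reached 41.4, 37.1, 24.3 and 34.8 CPM in VCR, 25.0, 30.7, 29.1 and 29.8 in Low-VCR and 36.3, 31.6, 27.3 and 29.7 in High-VCR. All treated libraries were above all untreated ones, by a smaller margin than for Acta2 or Myl9. Tagln rose by 0.81 ± 0.16 on the log2 scale in VCR against NC (edgeR adjusted p = 0.000257), by 0.74 ± 0.16 in Low-VCR against ALL (0.00114) and by 0.87 ± 0.16 in High-VCR against ALL (0.000157).

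Calponin, from Cnn1, binds actin and restrains the myosin motor. Cnn1 was among the weakest members, at 5.36, 5.60, 3.98 and 4.73 CPM in NC and 3.70, 5.77, 5.96 and 5.19 in ALL. In VCR it was 11.1, 11.6, 8.0 and 8.06 CPM, in Low-VCR 7.04, 5.44, 8.86 and 8.20, and in High-VCR 6.99, 6.10, 7.76 and 8.09. The VCR libraries were clear of NC, whereas library 2 of Low-VCR fell inside the range of ALL. Cnn1 rose by 0.98 ± 0.20 on the log2 scale in VCR against NC (edgeR adjusted p = 0.000217). The changes in Low-VCR, 0.52 ± 0.20 (edgeR adjusted p = 0.0349), and High-VCR, 0.49 ± 0.20 (0.0325), passed narrowly. They were lost with DESeq2 size factors at adjusted p-values of 0.145 and 0.167. They were lost in both without library 1 or 4 of ALL, and also without library 3 or 4 of the treated group of each comparison.

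Leiomodin, from Lmod1, nucleates actin filaments in smooth muscle and had the lowest level per length of the members in NC and ALL. Lmod1 stood at 6.09, 4.2, 4.85 and 4.95 CPM in NC and at 5.33, 5.36, 4.69 and 4.75 in ALL. It stood at 19.8, 20.5, 12.8 and 11.7 CPM in VCR, 11.0, 10.6, 13.8 and 12.3 in Low-VCR and 17.6, 11.7, 14.6 and 20.9 in High-VCR. No treated library reached down to the untreated range. The log2 rise was 1.69 ± 0.21 in VCR against NC, 3.23-fold (edgeR adjusted p = 1.38e-06), 1.25 ± 0.21 in Low-VCR against ALL (8.16e-05) and 1.69 ± 0.21 in High-VCR against ALL (1.68e-06).

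Desmin, the intermediate filament protein of muscle, is encoded by Des. Des levels were 8.53, 6.78, 6.98 and 5.48 CPM in NC and 6.75, 6.17, 7.91 and 5.52 in ALL. They were 20.1, 19.7, 14.5 and 23.2 CPM in VCR, 13.7, 10.6, 15.02 and 17.0 in Low-VCR and 23.2, 16.9, 20.8 and 23.2 in High-VCR. The treated libraries were all higher than the untreated ones, and Low-VCR was the lowest of the treated groups. Des rose by 1.48 ± 0.19 on the log2 scale in VCR against NC (edgeR adjusted p = 1.7e-06), by 1.09 ± 0.19 in Low-VCR (0.000103) and by 1.67 ± 0.19 in High-VCR (5.8e-07), both against ALL.

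Smoothelin, from Smtn, is an actin-binding protein of contractile smooth muscle, and its controls differed from each other. Smtn stood at 17.5, 11.9, 6.59 and 10.6 CPM in NC and at 18.5, 20.5, 19.2 and 24.6 in ALL. It stood at 36.7, 43.4, 19.5 and 34.1 CPM in VCR, 25.6, 25.5, 34.0 and 36.3 in Low-VCR and 39.7, 32.96, 34.2 and 35.2 in High-VCR. Every ALL library was above every NC library, and NC had the widest spread relative to its mean of any member in an untreated group. Smtn rose by 1.52 ± 0.25 on the log2 scale in VCR against NC (edgeR adjusted p = 3.45e-05) and by 0.78 ± 0.25 in High-VCR against ALL (0.00901). In Low-VCR against ALL its 4 libraries were all higher, and the difference of 0.55 ± 0.24 did not pass (edgeR adjusted p = 0.067).

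Against ALL, 7 members rose, Actg2 fell and 2 did not pass in Low-VCR, where 51.6% of all tested genes were called (36.4% higher and 15.2% lower). In High-VCR 8 members rose, Actg2 fell and Mylk did not pass, where 72.9% of all genes were called (42.4% higher and 30.5% lower). The median log2 fold change of the members was 0.92 in Low-VCR beside 0.08 over all genes, and 1.21 in High-VCR beside 0.16. In Low-VCR 7 members lay wholly above ALL and 1 wholly below, and in High-VCR 9 and 1 did so. The shares of all genes doing so were 35.0% above and 29.4% below in Low-VCR, and 40.9% and 29.1% in High-VCR. With Sertoli scaling no member was higher in either comparison, while 7 were lower in Low-VCR and 5 in High-VCR. Of all genes, 3.08% were then called higher and 76.8% lower in Low-VCR, and 5.49% and 75.4% in High-VCR.

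Leukaemia without the drug was compared with controls in ALL against NC. No member passed edgeR's test, and none of the 16534 genes did (0.0%), with 748 of them at an unadjusted p under 0.05 and 18 called by DESeq2. An unadjusted p under 0.05 was reached by 1 member, Smtn, with a log2 difference of 0.83 ± 0.25 (edgeR adjusted p = 0.816). Smtn was also the member whose 4 ALL libraries were all above NC, as were those of 3.41% of all genes, and limma voom with quality weights passed it at an adjusted p of 0.0334 where DESeq2 passed no member. The other 9 differences lay between -0.21 and 0.07, and the widest of their 95% intervals, that of Actg2, ran from -0.87 to 0.67.

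The level of leukaemia in treated mice was compared between High-VCR and Low-VCR. No member passed, where 7.81% of all genes were called. That count of 1292 genes became 0 without library 1 or 3 of Low-VCR or library 1 or 4 of High-VCR, and with the fit limited to these groups, so every call from this comparison named below was lost there. Unadjusted p-values were under 0.05 for 2 members. Des was higher in High-VCR by 0.58 ± 0.18 on the log2 scale (95% interval 0.20 to 0.96, edgeR adjusted p = 0.0527) and Lmod1 by 0.44 ± 0.20 (0.02 to 0.86, 0.156). For both, the libraries of the groups overlapped. Des passed with DESeq2 (adjusted p = 0.032), without library 4 of Low-VCR (0.0297) and without library 2 of High-VCR (0.0241), and Lmod1 also passed without the latter (0.0491). The median difference over the members was 0.23. With limma voom and quality weights 5 of them were called, Acta2, Myl9, Des and Lmod1 higher and Actg2 lower. That fit called 50.9% of all genes, so these calls set no member apart.

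Among the treated groups, Actg2 was the member that separated. It was higher in Low-VCR than in VCR by 1.55 ± 0.37 on the log2 scale, 2.94-fold, with no overlap (edgeR adjusted p = 0.00801). In this comparison 30.2% of all genes were called, and 13.8% lay wholly higher. The difference was 1.22 without library 1 of VCR (0.00086). It did not pass when the fit was limited to the 8 libraries of these groups (0.112) or to the 12 treated libraries (0.0579). All VCR libraries carry lower library numbers than those of the engrafted groups, so numbering and engraftment cannot be told apart here. The other 9 members did not pass, with log2 differences from -0.48 ± 0.18 for Acta2 to -0.14 ± 0.24 for Smtn. Without library 3 of VCR 5 members passed, where 41.9% of all genes were called. Without library 4 of VCR, 3 of Low-VCR or 4 of Low-VCR 2 did, where 31.5%, 21.1% and 27.5% of all genes were called. No member passed in High-VCR against VCR, where 1 gene in all did (0.00605%). There Actg2, at 1.03 ± 0.37, and Cnn1, at -0.42 ± 0.19, had unadjusted p-values under 0.05, and DESeq2 called no member.

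Whether the response to vincristine differed with leukaemia was tested as an interaction, the change against ALL minus the change of VCR against NC. No member passed for Low-VCR, where 5.07% of all genes did, or for High-VCR, where 0.00605% did. For Low-VCR the unadjusted p was under 0.05 for 2 members, Actg2 at 1.65 ± 0.52 on the log2 scale (edgeR adjusted p = 0.065) and Smtn at -0.97 ± 0.35 (0.0969). Actg2 passed there without library 1 of VCR (1.32, adjusted p = 0.0116), and both passed without library 3 of VCR (0.0215 and 0.0294). DESeq2 called Actg2 (0.0218). For High-VCR the same 2 genes had unadjusted p-values under 0.05, with adjusted p-values of 0.97, and DESeq2 called no member.

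Compared per length, as CPM per kilobase of merged exons, the order of the members changed with treatment. Actg2 was the highest member in NC at 148 ± 9.44 (SD, n = 4) and in ALL at 138 ± 10.2, followed by Myl9 at 51.6 ± 3.95 and 44.5 ± 2.19 and Acta2 at 39.8 ± 1.51 and 36.9 ± 5.51. In VCR the order was Myl9 at 183 ± 46.0, Acta2 at 135 ± 34.5 and Actg2 at 25.4 ± 16. The spreads of Myl9 and Acta2 across libraries overlapped, and these genes were not compared within each library. The same order of the top 3 held in Low-VCR and High-VCR. Tagln was the fourth in every group, at 10.7 to 21.6 as group means. Tagln and Actg2 overlapped within their spread in VCR. Mylk, Myh11, Smtn, Des, Cnn1 and Lmod1 followed in NC, from 9.18 ± 0.666 for Mylk to 1.27 ± 0.199 for Lmod1, and several neighbours, such as Des at 2.29 ± 0.413 and Cnn1 at 1.95 ± 0.288, lay within each other's spread.

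The rise was then set against the Sertoli cell genes, since Sertoli cells, like myoid cells, are somatic cells of the tubule. Myl9 tracked this list closely. Its log2 level minus the mean of the 21 Sertoli genes was 0.54 ± 0.12 (SD, n = 4) in NC and 0.43 ± 0.06 in ALL, beside 0.52 ± 0.12 (VCR), 0.45 ± 0.07 (Low-VCR) and 0.41 ± 0.07 (High-VCR). With Sertoli scaling the log2 differences in VCR against NC were -0.09 for Acta2, -0.02 for Myl9, -0.17 for Lmod1, -0.33 for Des, -0.33 for Smtn and -0.43 for Myh11, and none of these 6 passed (edgeR adjusted p from 0.0577 for Myh11 to 0.85 for Myl9). Against ALL, Acta2, Myh11 and Myl9 did not pass in either engrafted group, while Des (-0.57) and Lmod1 (-0.42) were lower in Low-VCR and did not pass in High-VCR (-0.25 and -0.24).

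Tagln, Cnn1 and Mylk were lower relative to the Sertoli genes in all 3 comparisons with untreated groups, and Smtn in both comparisons with ALL. Smtn went from -0.85 ± 0.24 (SD, n = 4) relative to the Sertoli genes in ALL to -1.99 ± 0.25 in Low-VCR and -1.98 ± 0.25 in High-VCR, with all treated libraries of these groups below all ALL libraries. With Sertoli scaling its change was -1.13 in Low-VCR (edgeR adjusted p = 0.000409) and -1.12 in High-VCR (0.000354). Tagln went from -1.02 ± 0.24 relative to them in NC to -2.06 ± 0.19 in VCR, and all 12 treated libraries, at -2.49 to -1.70, lay below all 8 untreated ones, at -1.41 to -0.74. Mylk went from 0.89 ± 0.11 in NC and 1.05 ± 0.20 in ALL to between -0.67 and -0.62 as the means of the treated groups, with every treated library below 0. With Sertoli scaling the change in VCR against NC was -1.03 for Tagln (edgeR adjusted p = 2.53e-05), -0.85 for Cnn1 (0.000239) and -1.55 for Mylk (1.14e-06), in a fit where 74.2% of all genes were called lower. Actg2 went from 2.34 ± 0.15 relative to the Sertoli genes in NC to -2.36 ± 1.54 in VCR. Relative to the 16 endothelial genes, all 10 members were lower in VCR against NC, in a fit where 2.66% of all genes were called higher and 81.2% lower.

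**Figure D2:**
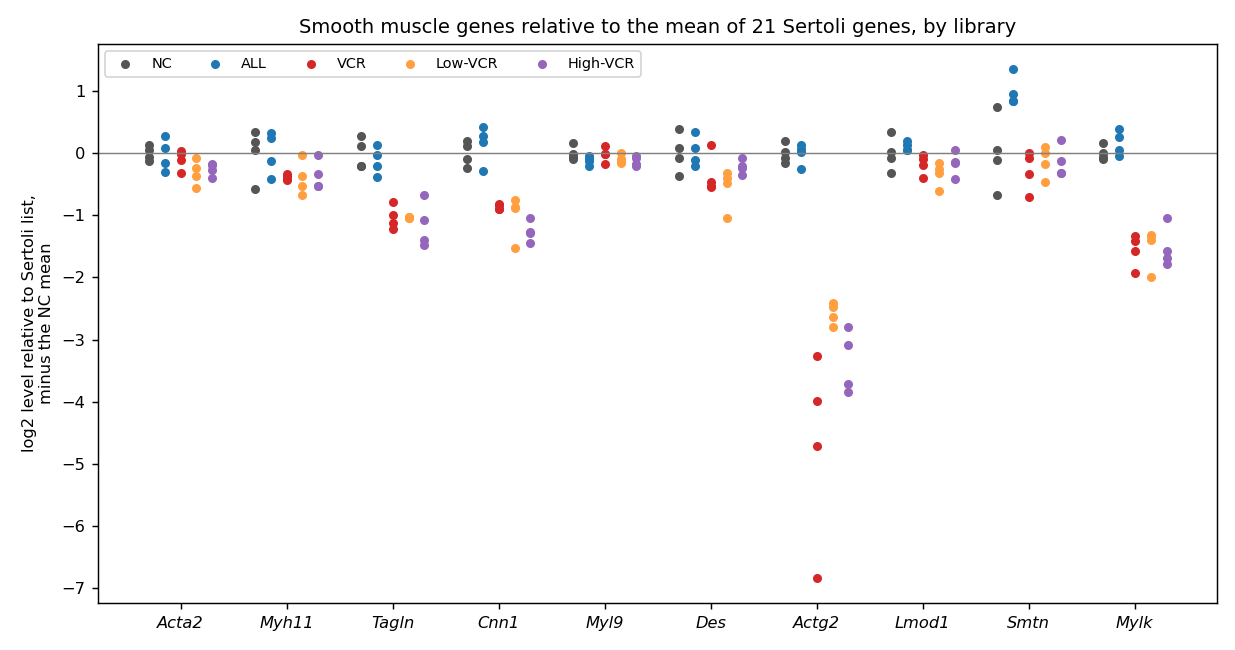
Log2 level of each member minus the mean of the 21 Sertoli cell genes, with the NC mean of each gene set to 0 (y axis), 1 point per library, coloured by group, for the 10 genes (x axis). Myl9 stays near 0 in all groups, Tagln, Cnn1 and Mylk drop in all treated libraries, and Actg2 drops most, farthest in library 1 of VCR.

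**Figure D3:**
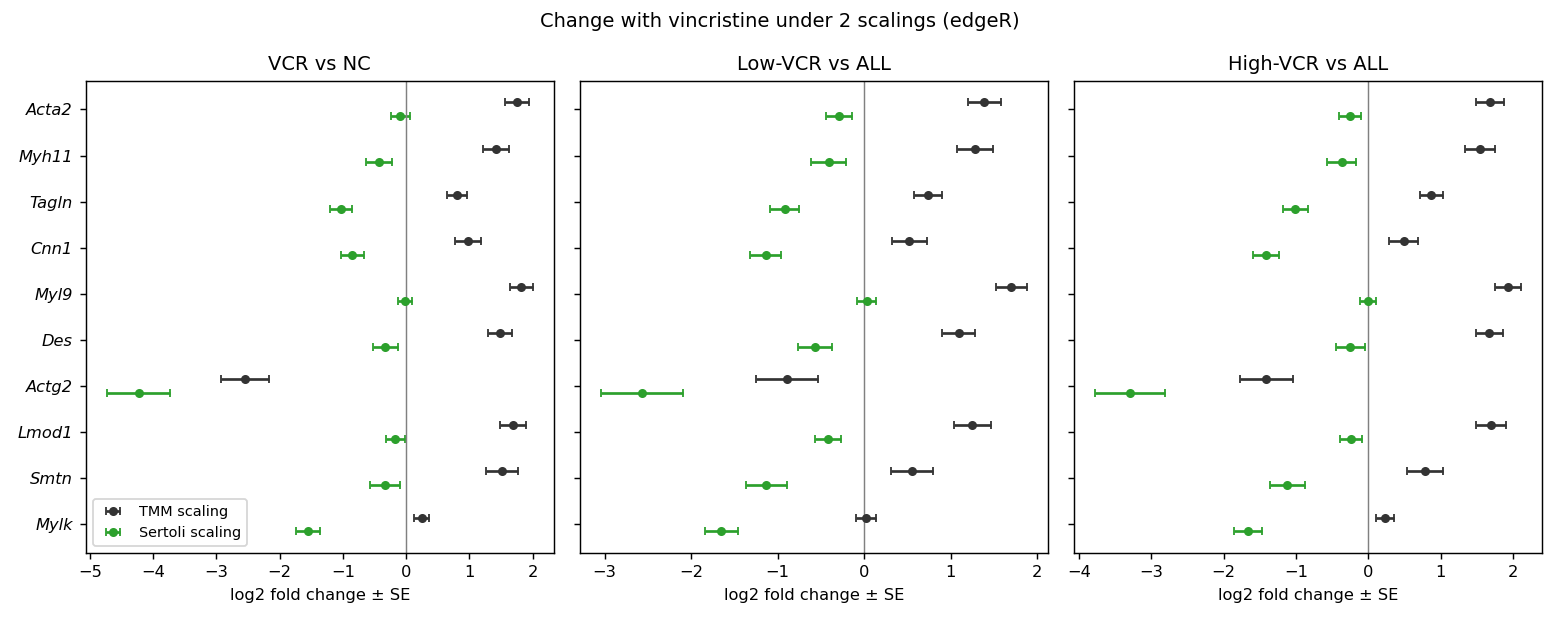
Log2 fold change ± SE from edgeR (x axis) of the 10 genes (y axis) in VCR against NC, Low-VCR against ALL and High-VCR against ALL, with TMM scaling in black and Sertoli scaling in green. The change of Acta2 in VCR against NC is 1.76 with TMM and -0.09 with Sertoli scaling, and Actg2 is below 0 with both.

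Spermatid genes moved with Actg2 from library to library. The correlation of Actg2 with the mean log2 level of the 15 spermatid genes, after subtracting group means, was r = 0.97 (Spearman's rho 0.72) over the 20 libraries, and 0.77 without libraries 1 and 3 of VCR, the 2 farthest out. Over the 12 treated libraries r was 0.98 (rho 0.90), and 0.90 without libraries 1 and 2 of VCR. The 8 others apart from Mylk had negative values in the same libraries, from -0.73 for Tagln to -0.35 for Smtn, and Mylk had -0.16. These values share each library's depth and scaling and are given as descriptions. How far spermatid content set the level of Actg2 was not tested.

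**Figure D4:**
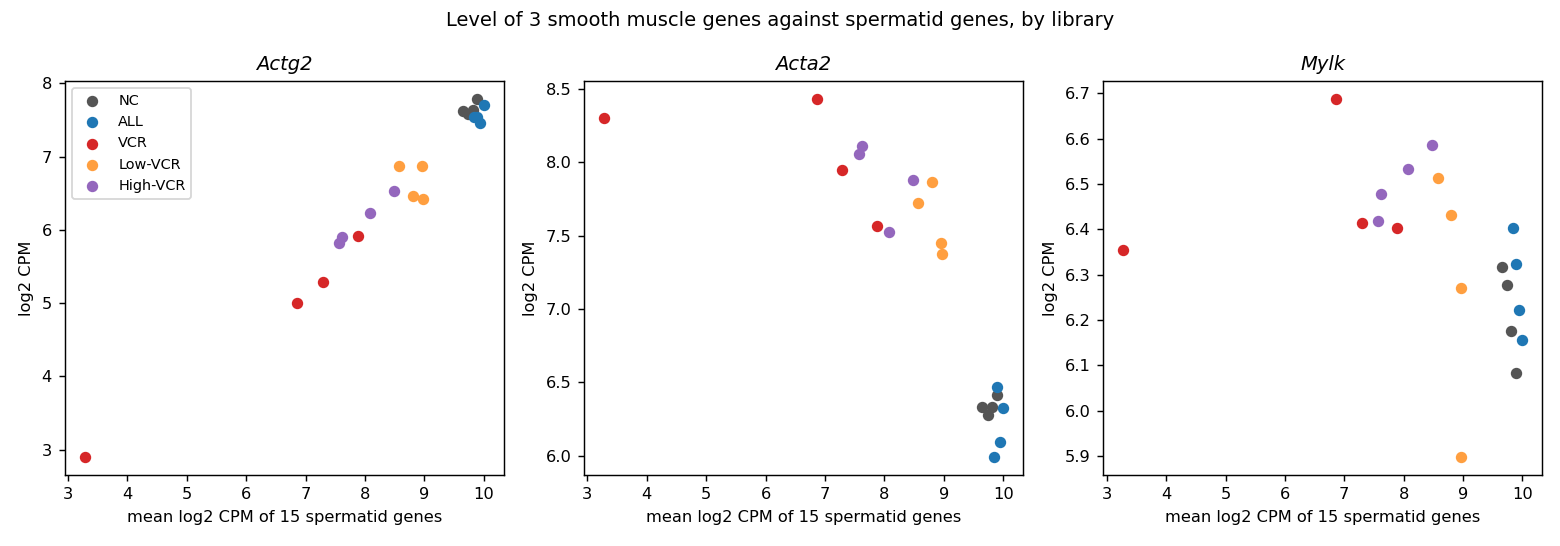
Log2 CPM of Actg2, Acta2 and Mylk (y axes) against the mean log2 CPM of 15 spermatid genes (x axis), 1 point per library, coloured by group. Actg2 rises with the spermatid genes, with r = 0.98 over the 12 treated libraries, Acta2 is lower where they are higher, and Mylk shows little relation.

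Genes with the pattern most like that of Actg2, looked up after its values were seen, were Cdc14a (r = 0.997 over 20 libraries), Eef1d, Psmf1, Habp4 and Tmem82. Cdc14a stood at 205 ± 13.4 CPM (SD, n = 4) in NC and 209 ± 16 in ALL, beside 35.5 ± 24.2 (VCR), 101.6 ± 18.7 (Low-VCR) and 70.9 ± 19.4 (High-VCR), where the Actg2 means were 202, 189, 34.6, 101.8 and 70.8. With group means subtracted, Cdc14a (0.992), Tex55, Wnt3, Hspa1l and Sppl2c were nearest to Actg2. The genes nearest to the mean of the 10 members, of 14781 ranked, were Inhbb (r = 0.984), Sphk2, Epas1, Ltbp4 and Vat1. Inhbb encodes the inhibin beta-B subunit, a Sertoli cell product, and went from 18.7 ± 1.79 CPM in NC to 70.3 ± 16.5 in VCR. With group means subtracted the nearest were Rmnd5b (0.90), Rcn3, Gpx3, Sys1 and Syngr2. All of these were picked for their likeness, and r is a description.

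Among the members, 8 were positively correlated with each other within groups. After subtracting group means, the 28 pairs without Actg2 and Mylk had correlations from 0.08 to 0.85 with a median of 0.49 over 20 libraries. The 9 pairs with Actg2 ran from -0.51 to 0.09 with a median of -0.39. Myl9 had the closest relation to the Sertoli list, at 0.94 over 20 libraries after subtracting group means (rho 0.86), and 0.90 without library 3 of VCR and library 2 of High-VCR. Acta2 was at 0.73 there, which became 0.54 without the same 2 libraries, and Mylk at -0.02.

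Other genes of the contraction apparatus rose in part. Of 21 further genes of contraction and its regulation, 15 rose and 3 fell in VCR against NC, with a median log2 fold change of 1.11. With Sertoli scaling 4 were higher and 12 lower. Of all genes, 42.1% were called higher and 35.6% lower with TMM, and 8.21% and 74.2% with Sertoli scaling. Cnn3, a calponin of non-muscle cells, went from 8.21 ± 1.87 CPM (SD, n = 4) in NC to 146 ± 53.7 in VCR, a log2 change of 4.15 ± 0.29 (edgeR adjusted p = 2.87e-08). Myh9, a non-muscle myosin heavy chain, rose by 2.42 ± 0.21 (5.46e-08). Both are also broadly expressed outside muscle, and both were higher with Sertoli scaling too, by 2.30 and 0.57. In High-VCR against Low-VCR the smallest p-values of the list were those of Ppp1r12a, the targeting subunit of myosin phosphatase, at 0.42 ± 0.11 (edgeR adjusted p = 0.029, and 0.653 with Sertoli scaling), and Ppp1r14a, an inhibitor of that phosphatase, at 1.15 ± 0.29 (0.0286).

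Of the 15 tested transcriptional regulators of contractile genes, 6 rose and 6 fell in VCR against NC, with a median of -0.05, where 42.1% of all genes were called higher and 35.6% lower. Srf, which encodes the factor that binds the CArG box, fell by 1.18 ± 0.19 on the log2 scale (edgeR adjusted p = 3.37e-05), from 67.0 ± 9.48 to 29.5 ± 4.10 CPM, and was also lower in Low-VCR (-0.61, 0.0143) and High-VCR (-1.17) against ALL, of which the first did not pass with library size alone (0.173). Klf4, known as a repressor of contractile genes and also expressed in spermatids, fell by 2.98 ± 0.41 (5.03e-06) and was lower in High-VCR than in Low-VCR by 1.87 ± 0.39 (0.0215). Smad3, a mediator of TGF-beta signals, rose by 2.93 ± 0.20 (2.87e-08). Tgfb1, which encodes a TGF-beta, rose by 1.80 ± 0.18 (1.46e-07), though it stood at -0.04 with Sertoli scaling. Myocd, the muscle partner of SRF, had only 0 to 30 counts per library. It passed as lower in VCR against NC at -2.65 ± 1.09 (edgeR adjusted p = 0.0342) and did not pass with library size alone (0.0655).

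Receptors, ligands and channels of contraction rose for the most part. Of 18 tested genes, 13 rose and 5 fell in VCR against NC, with a median of 1.77, where 42.1% of all genes were called higher and 35.6% lower. With Sertoli scaling 4 were higher and 5 lower, where 8.21% and 74.2% of all genes were. Ednra, the endothelin receptor through which endothelin contracts myoid cells, rose from 4.38 ± 0.385 CPM (SD, n = 4) in NC to 11.8 ± 2.45 in VCR, 1.43 ± 0.20 on the log2 scale (edgeR adjusted p = 5.48e-06), and stood at -0.41 with Sertoli scaling (0.0624). Gucy1a1, a subunit of the nitric oxide receptor, rose by 2.51 ± 0.26 (1.91e-07), and Npr1, the receptor of atrial natriuretic peptide, by 1.84 ± 0.20 (2.8e-07). With Sertoli scaling Gucy1a1 was still higher, by 0.67, and Npr1 stood at -0.01 (0.965). Gucy1a1 was also higher in High-VCR than in Low-VCR, by 0.83 ± 0.23 (edgeR adjusted p = 0.0392), which did not pass with upper-quartile (0.0509) or Sertoli scaling (0.119). Cacna1c, the pore subunit of the L-type calcium channel, went the other way, from 5.16 ± 0.425 CPM in NC to 0.28 ± 0.322 in VCR, where it was near the level of 3 counts. It fell by 4.18 ± 0.73 (6.02e-05) and was also lower in High-VCR than in Low-VCR by 2.42 ± 0.70 (edgeR adjusted p = 0.0432).

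Cytoskeletal and adhesion genes shared by many cell types gave a like picture. Of 26 tested, 16 rose and 2 fell in VCR against NC with a median of 1.23, where 42.1% of all genes were called higher and 35.6% lower. With Sertoli scaling 4 were higher and 14 lower, where 8.21% and 74.2% of all genes were. Itga5, the fibronectin receptor subunit, rose by 3.27 ± 0.24 on the log2 scale (edgeR adjusted p = 2.87e-08), and Zyx, zyxin of focal adhesions, by 2.48 ± 0.20 (3.65e-08). Itga1, a collagen receptor subunit, fell by 2.40 ± 0.31 in VCR against NC and was lower in High-VCR than in Low-VCR by 1.25 ± 0.30 (edgeR adjusted p = 0.0245). Svil, supervillin, was higher in High-VCR than in Low-VCR by 0.60 ± 0.16 (edgeR adjusted p = 0.036), which did not pass with upper-quartile (0.0539) or Sertoli scaling (0.207).

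Pericyte and vascular smooth muscle markers also rose, so vessel-associated cells as a source of the contractile genes cannot be told apart from myoid cells here. Of 14 tested markers, 13 rose and 1 fell in VCR against NC with a median of 1.99, above the median of the members. With Sertoli scaling 3 were higher and 3 lower. Of all genes, 42.1% were called higher and 35.6% lower with TMM, and 8.21% and 74.2% with Sertoli scaling. The summed level of the 15 listed markers, all detected, was 50.1 to 57.4 CPM in NC and 51.1 to 64.4 in ALL. After vincristine it was 148 to 244 CPM (VCR), 97.7 to 156 (Low-VCR) and 131 to 190 (High-VCR). Rgs5, a defining marker of pericytes, went from 0.857 ± 0.355 CPM (SD, n = 4) in NC to 8.02 ± 1.92 in VCR, 3.21 ± 0.33 on the log2 scale (edgeR adjusted p = 2.11e-07). Notch3, a receptor of vascular smooth muscle, rose by 2.23 ± 0.25 (5.64e-07), Abcc9, a potassium channel subunit of pericytes, by 2.11 ± 0.19 (6.32e-08), and Rcan2, a regulator of calcineurin, by 3.96 ± 0.45 (5.72e-07). With Sertoli scaling Rgs5 (1.39) and Rcan2 (2.17) passed, and Notch3 (0.38, adjusted p = 0.147) and Abcc9 (0.30, 0.153) did not. Casq2, which stores calcium, differed between High-VCR and Low-VCR by 0.75 ± 0.22 (edgeR adjusted p = 0.0432), and this passed with none of the 4 other scalings checked for it, at 0.0501 with DESeq2 size factors, 0.0537 with library size alone, 0.0623 with upper-quartile and 0.248 with Sertoli scaling.

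Peritubular and interstitial stroma markers, 13 of 13 detected, summed to 153 to 171 CPM in NC and 135 to 161 in ALL. After vincristine they summed to 348 to 473 CPM (VCR), 288 to 344 (Low-VCR) and 310 to 461 (High-VCR). In VCR against NC 10 rose and 1 fell with a median of 1.80, where 42.1% of all genes were called higher and 35.6% lower. With Sertoli scaling 4 were higher and 5 lower, where 8.21% and 74.2% of all genes were. Dcn, decorin of the extracellular matrix, went from 20.8 ± 1.4 to 126 ± 27.5 CPM (SD, n = 4), 2.59 ± 0.21 on the log2 scale (edgeR adjusted p = 3.76e-08), and Pdgfra, a growth factor receptor of stromal cells, rose by 2.65 ± 0.21 (3.65e-08). Pdgfra and Cxcl12, a chemokine of stromal cells, were also higher in High-VCR than in Low-VCR, by 0.96 ± 0.20 (edgeR adjusted p = 0.0215) and 1.4 ± 0.32 (0.0245). Their part in the levels of the contractile genes was not tested.

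Some markers of tissues that a testis sample could carry along had few counts, but the sums of their lists were not all low. The defining genes picked from the 13 of skeletal muscle stayed at few counts in every library. They had 0 to 7 for Acta1, 0 to 9 for Tnnt3, 2 to 16 for Myh4, 0 to 25 for Ckm and 0 to 30 for Mylpf. Mylpf had 0 to 8 counts in ALL, 9 to 25 in Low-VCR and 9 to 27 in High-VCR. Of the 8 skeletal muscle genes tested, 2 rose in VCR against NC, 3 in Low-VCR against ALL and 4 in High-VCR against ALL, where 1 fell, with changes of up to 2.53 on the log2 scale. Of all genes, 42.1%, 36.4% and 42.4% were called higher in these comparisons, and 30.5% lower in the last. The counts by themselves thus do not set the skeletal muscle genes apart. The part of skeletal muscle in the levels of the members was not tested. The 13 skeletal muscle genes summed to 26.3 to 36.2 CPM in untreated and 43.6 to 67.7 CPM in treated libraries, and Tnnt3 was at 0 in all NC libraries. Epididymal Lcn5 and Adam7 had at most 4 and 2 counts. The 12 epididymal genes together summed to 8.38 to 12.2 CPM in untreated and 1.68 to 7.01 CPM in treated libraries. Of the 3 tested, 1 rose and 2 fell in VCR against NC, where 42.1% of all genes were called higher and 35.6% lower. Against ALL, 1 rose in Low-VCR, and 1 rose and 2 fell in High-VCR. Msln, of the mesothelium that covers the testis, had 14 to 39 counts per library in NC, 19 to 23 in ALL and 48 to 85 in the treated groups. The 7 mesothelial genes together summed to 48.8 to 65.8 CPM in untreated and 22.1 to 53.6 CPM in treated libraries. The 6 adipocyte genes summed to 17.7 to 38.5 CPM in untreated and 5.58 to 19.4 CPM in treated libraries.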

How the data were processed

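Testis RNA was measured by RNA-seq in 20 libraries. The authors deposited a table of raw counts per gene, made from reads treated with Trimmomatic 0.39, STAR 2.7.10b and Subread 2.0.3 on GRCm39, per the submitters' processing notes, which also name DESeq2 1.36.0. The annotation, the strand setting and any removal of human reads are not given in the sources used here. Counts were tested with edgeR 4.0.16 (quasi-likelihood, TMM scaling, filterByExpr with a minimum count of 10) in R 4.3.3, in 1 fit of all 5 groups with 16534 genes tested and Benjamini-Hochberg adjusted p under 0.05 as the threshold. Total counts ran from 9425158 to 16357287 per library, where 3 counts stand for 0.167 to 0.365 CPM. CPM was computed from the TMM-scaled totals. Sertoli and endothelial scaling replaced TMM by the counts of 21 and 16 marker genes.

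The members and lists were chosen with earlier results of these data known. All 10 members were named. Of other genes, the text names the 5 most like the members' mean over libraries, the 5 most like it within groups, the 2 smallest p-values of each contractile list in VCR against NC and in High-VCR against Low-VCR, and Myocd, Srf, Ednra, Rgs5 and Notch3. Defining markers of other tissues are named by their counts. The genes most like Actg2 alone were looked up after its values were seen. Alternatives were DESeq2 1.42.0, limma 3.58.1 (voom with quality weights), other scalings and filters, fits limited to the groups compared, a term for the range of library numbers, a replicate block, and each replicate left out. The labels do not say that replicate numbers pair the samples. Libraries of the same number correlated at -0.38 to 0.53 after subtracting group means, over 0.1 in 5 of 40 pairs. This cannot settle whether any were paired. Libraries of a group differed by more than counting noise in every pair. The scripts were tested on simulated data.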

Additional observations from a re-analysis of the deposited data

Results flagged for a closer look

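Mylk in VCR had 1 library far from the other 3. Library 2 stood at 102.99 CPM and the others at 81.7 to 85.2 CPM, a gap of 0.838 of the whole range, above Dixon's 95% critical value for 4 samples. It was 1 of 50 combinations of gene and group examined, and chance marks about 1 in 20.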

How the results depend on the processing

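Scaling changed the sign of the log2 difference of most members, and a change of sign is not by itself a call. With Sertoli scaling most of these differences in VCR against NC did not pass, as given above. With Sertoli scaling the log2 fold changes in VCR against NC were -0.09 for Acta2, -0.43 for Myh11, -1.03 for Tagln, -0.85 for Cnn1, -0.02 for Myl9, -0.33 for Des, -0.17 for Lmod1, -0.33 for Smtn and -1.55 for Mylk. With endothelial scaling they were -0.62 for Acta2, -0.93 for Myh11, -1.55 for Tagln, -1.36 for Cnn1, -0.54 for Myl9, -0.84 for Des, -0.67 for Lmod1, -0.79 for Smtn and -2.09 for Mylk. In Low-VCR against ALL, Sertoli scaling gave -0.29 for Acta2, -0.41 for Myh11, -0.92 for Tagln, -1.14 for Cnn1, -0.57 for Des, -0.42 for Lmod1, -1.13 for Smtn and -1.65 for Mylk, and endothelial scaling gave -0.04 for Acta2, -0.18 for Myh11, -0.65 for Tagln, -0.92 for Cnn1, -0.34 for Des, -0.19 for Lmod1, -0.94 for Smtn and -1.46 for Mylk. In High-VCR against ALL, Sertoli scaling gave -0.25 for Acta2, -0.37 for Myh11, -1.01 for Tagln, -1.42 for Cnn1, -0.01 for Myl9, -0.25 for Des, -0.24 for Lmod1, -1.12 for Smtn and -1.66 for Mylk, and endothelial scaling gave -0.24 for Acta2, -0.40 for Myh11, -1.0 for Tagln, -1.41 for Cnn1, -0.01 for Myl9, -0.23 for Des, -0.25 for Lmod1, -1.16 for Smtn and -1.68 for Mylk. In the Low-VCR interaction, endothelial scaling gave 0.90 for Tagln and 0.81 for Myl9. These scalings moved the median of all genes in VCR against NC to -1.70 and -2.23, from 0.10 with TMM. Of all genes called in that comparison, 54.2% were higher with TMM, 65% with library size alone, 9.96% with Sertoli and 3.17% with endothelial scaling. In Low-VCR against ALL the higher share was 70.6% with TMM, 52.9% with DESeq2 size factors, 89.3% with library size alone, 3.85% with Sertoli and 5.88% with endothelial scaling, and in High-VCR against ALL 58.2% with TMM, 68.6% with library size alone, 6.78% and 5.53%.

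The number of members called was 9 in VCR against NC and 4 with Sertoli scaling. It was 8 in Low-VCR against ALL and 5 with endothelial scaling, and 9 in High-VCR against ALL and 5 with either. Sertoli scaling called 82.4% of all genes in VCR against NC and 80.9% in High-VCR against ALL. Endothelial scaling called 73.1% of all genes in Low-VCR and 77.8% in High-VCR, both against ALL. In ALL against NC voom called 1 against 0 otherwise, where voom called 0.629% of all genes. In High-VCR against Low-VCR 0 became 1 with DESeq2, 5 with voom and 1 with the library range term. The shares of all genes called in these fits were 12.4%, 50.9% and 10.4%. In Low-VCR against VCR 1 became 2 with DESeq2 size factors, 5 with library size alone, 6 with upper-quartile scaling, 3 with the DESeq2 test and 2 with voom. Of all genes, 30.2% were called there with TMM, then 31.7%, 39.9%, 41%, 35.3% and 25% in that order. With library size alone and upper-quartile scaling, 38.1% and 38.8% of all calls were higher, against 55.1% with TMM. The number of members called was 0 with only the groups compared or, chosen after seeing the data, only the 12 treated libraries. In the Low-VCR interaction 0 became 3 with endothelial scaling, 1 with DESeq2 and 2 with voom, where 31.1%, 11% and 15.7% of all genes were called. Leaving out 1 library gave 9 to 9 in VCR against NC, 6 to 7 in Low-VCR against ALL, 8 to 9 in High-VCR against ALL, 0 to 2 in High-VCR against Low-VCR, 1 to 5 in Low-VCR against VCR and 0 to 2 in the Low-VCR interaction. Of all genes, these fits called 72.5 to 79.5%, 43.9 to 48.1%, 65 to 77.4%, 0 to 19.4%, 14.8 to 41.9% and 0.0418 to 14%, in the same order. The cause was not tested. Over all genes, the count of calls also moved: in High-VCR against Low-VCR 1292 became 2129 with DESeq2, 8419 with voom, 294 with the replicate block and 0 to 3218 on leaving out 1 library. In Low-VCR against VCR 5000 became 2976 with Sertoli scaling, 1 with only the groups compared, 924 with the 12 treated libraries and 3072 without library 1 of VCR. In the Low-VCR interaction 839 became 5140 with endothelial and 86 with Sertoli scaling, 513 with library size alone, 1850 with DESeq2, 2603 with voom, 9 with the replicate block and 7 to 2322 on leaving out 1 library. In Low-VCR against ALL 8527 became 13209 with Sertoli scaling, and in ALL against NC 0 became 104 with voom, 28 with only the groups compared and 18 with DESeq2. In High-VCR against VCR 1 became 34 with DESeq2. The replicate block left 9 members called in VCR against NC, 6 in Low-VCR against ALL and 8 in High-VCR against ALL. It called 77.2%, 49.5% and 72.4% of all genes there. Against ALL, Cnn1 and, in Low-VCR, Actg2 no longer passed. The labels do not say that replicate numbers pair the samples. For single members, 1799 values under alternatives kept their call, some of them changing sign where neither fit passed. With the sign kept, 45 newly passed and 32 no longer passed. The other 54 changed sign where the main fit, the alternative or both passed. Depth limits Cnn1 and Lmod1 most, at 34 and 39 counts in their lowest libraries.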
